A study of Mus musculus with 9 samples.

Results

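Respiratory complexes II to V carry electrons and make ATP in the inner mitochondrial membrane, and the nuclear genes of their subunits were compared between kidneys at 96 weeks and at 14 weeks of age. The list held 40 genes: 4 of complex II, 9 of complex III, cytochrome c (Cycs), 11 of complex IV and 15 of complex V. Of these, 39 were measured among 19938 genes with a probe set of 1 gene symbol. Cox7c was found only on probe sets that carry several symbols and was not analysed here. Atp5f1 was found under its later symbol Atp5pb, of which it is a listed synonym.

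The mice were female and wild type, on a mixed FVB/C57BL6 background, and had received no treatment. Whole kidney RNA was hybridised to Affymetrix Mouse Gene 1.0 ST arrays, with 5 arrays at 96 weeks and 4 arrays at 14 weeks, each taken as 1 mouse. The comparison asks how kidney transcripts differ with age. Values are log2 expression levels, so that a difference of 1 is a doubling, and each fold change is given as 96 minus 14 weeks. A gene was called changed at an adjusted p under 0.05 (limma, Benjamini-Hochberg over all 19938 genes). The 15 tubule markers had mean log2 levels between 7.30 and 12.85, and without a measure of signal over background these levels do not test the labelled tissue.

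Complex II takes electrons from succinate, complex III passes them on to cytochrome c, and complex IV hands them to oxygen. Protons pumped by the chain then drive complex V, the ATP synthase. Tubule cells of the kidney depend on this pathway for the ATP that powers the uptake of sodium and solutes, above all in the proximal tubule.

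At 96 weeks 13 of the 39 subunit genes rose and none fell (limma, adjusted p under 0.05), which is 33.3% of them. Over all genes 4.31% rose and 2.40% fell. The genes that rose were Sdhd of complex II, Uqcr11, Uqcrq, Uqcr10 and Uqcrc1 of complex III, Cox4i1 and Cox5b of complex IV, and Atp5g2, Atp5d, Atp5e, Atp5o, Atp5k and Atp5g1 of complex V. Cytochrome c did not pass. At an unadjusted p under 0.05 from limma, 23 of the 39 genes passed, and all of these were higher at 96 weeks, while over all genes 13.3% were higher and 15.3% lower at that threshold. The log2 fold change was above 0 for 36 of the 39 genes, against 8645 of all 19938 genes. Of the 36 genes, 31 stayed above 0 under all 20 alternatives, and Uqcrb, Cycs and Cox7b were below 0. The log2 fold change of the 39 genes ranged between -0.06 and 0.79 with a median of 0.18, while the median over all genes was -0.03. For 16 of the 39 genes every old kidney lay above every young kidney, which held for 7.49% of all genes, and none lay wholly below, which held for 5.79%. At a change of at least 1.5-fold with an unadjusted p under 0.05, Uqcr11, Atp5d, Atp5e and Atp5g2 were higher and none was lower, against 1.28% and 0.321% of all genes. In whole tissue, a change in the number of cells of a type and a change in RNA per cell cannot be told apart.

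**Figure D1:**
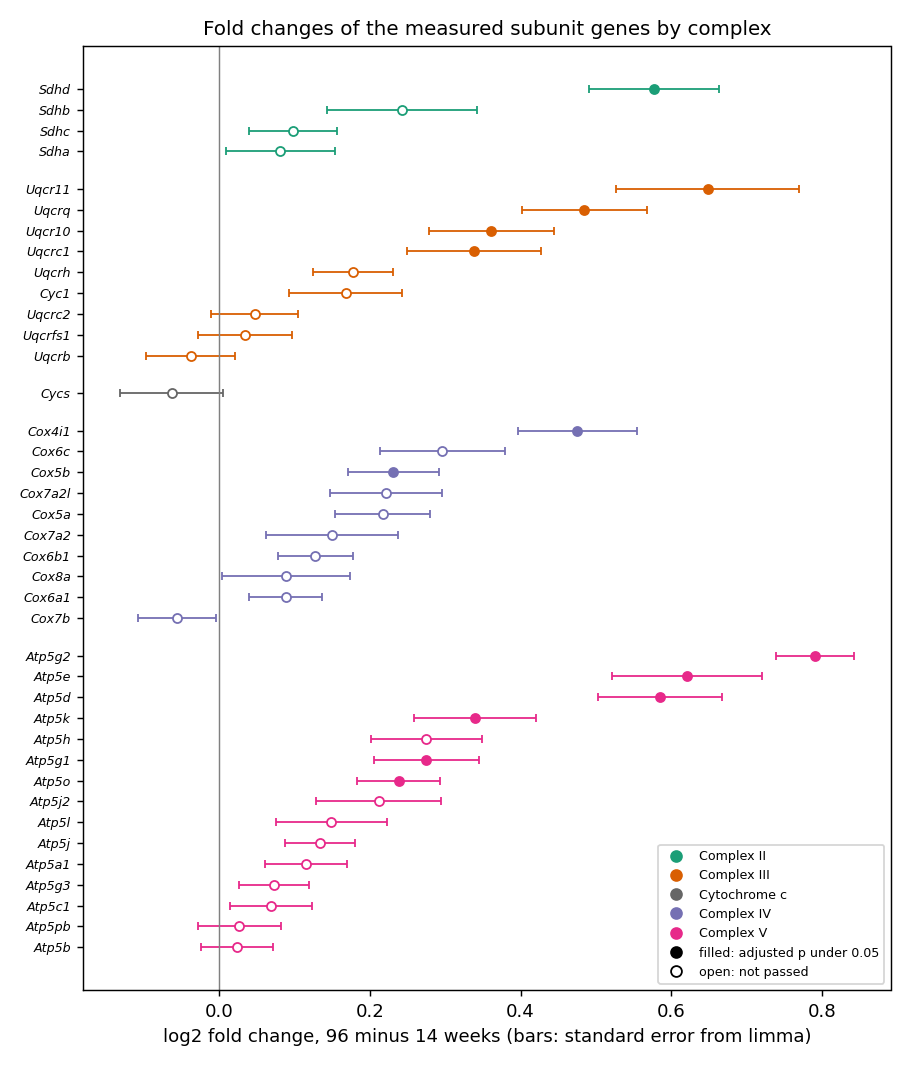
Log2 fold change (96 minus 14 weeks, horizontal axis) of the measured subunit genes, grouped by complex, each with its standard error from limma. Filled points passed at an adjusted p under 0.05, and all 13 of them lie to the right of 0, with Atp5g2 farthest out at 0.79.

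Complex II is also an enzyme of the citric acid cycle. Sdha and Sdhb form its catalytic part in the matrix, and Sdhc and Sdhd anchor it in the membrane and bind ubiquinone. Of the 4 genes Sdhd rose and the others did not pass. Sdhd read 10.17, 10.39, 10.06, 9.999 and 10.16 in the old kidneys, against 9.57, 9.63, 9.70 and 9.41 in the young kidneys. All old kidneys lay above all young kidneys, and replicate 2 was the highest of the old. Sdhd rose by 0.58 (log2, standard error 0.086, adjusted p = 0.0079 from limma). Sdhb, the iron-sulfur subunit, read 9.98, 10.08, 9.66, 9.79 and 10.02 at 96 weeks, against 9.74, 9.81, 9.62 and 9.48 at 14 weeks. Old replicates 3 and 4 lay within the range of the young kidneys. For Sdhb the log2 fold change was 0.24 (limma, adjusted p = 0.15). Sdhc, the other anchor subunit, had a log2 fold change of 0.10, and Sdha, the flavoprotein, had 0.08, both with overlapping groups.

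Complex III had 9 measured genes, of which 4 rose, with a median log2 fold change of 0.18. Its catalytic subunits encoded in the nucleus are Cyc1 (cytochrome c1) and Uqcrfs1, the Rieske iron-sulfur protein. Neither passed, at log2 fold changes of 0.17 and 0.03. Uqcrc1 and Uqcrc2 are the large core proteins, which face the matrix, and they differed in their calls. Uqcrc1 read 9.56, 9.29, 9.05, 9.18 and 9.29 in old kidneys, against 8.96, 8.95, 8.95 and 8.89 in young kidneys. The groups did not overlap, and the spread was wider at 96 weeks (SD 0.19, n = 5) than at 14 weeks (SD 0.029, n = 4). Uqcrc1 rose by 0.34 (log2, standard error 0.088, adjusted p = 0.049 from limma), while Uqcrc2 had a log2 fold change of 0.05 with overlapping groups.

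The small subunits of complex III that lack a prosthetic group held its other 3 rises. Uqcr11, a very small subunit of the membrane part, read 8.45, 8.65, 8.61, 9.01 and 8.65 at 96 weeks, against 8.07, 8.28, 7.78 and 7.97 at 14 weeks. Replicate 4 was the highest of the old kidneys, and all old kidneys lay above all young kidneys. Uqcr11 rose by 0.65 (log2, standard error 0.12, adjusted p = 0.016 from limma). Uqcrq, which lies beside cytochrome b, read 10.05, 9.92, 9.83, 10.11 and 10.10 in old kidneys, against 9.69, 9.59, 9.40 and 9.40 in young kidneys. Again the groups were apart, and Uqcrq rose by 0.48 (log2, standard error 0.082, adjusted p = 0.012 from limma). Uqcr10 read 10.84, 10.90, 10.73, 10.90 and 10.94 at 96 weeks, against 10.62, 10.57, 10.58 and 10.24 at 14 weeks. The old kidneys all lay above the young ones, of which replicate 4 was far below the others. Uqcr10 rose by 0.36 (log2, standard error 0.083, adjusted p = 0.032 from limma). Uqcrh, the hinge protein at which cytochrome c1 docks, had a log2 fold change of 0.18 (limma, adjusted p = 0.071), and Uqcrb had -0.04.

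Cytochrome c, the mobile carrier between complexes III and IV, did not pass. Cycs read 11.51, 11.61, 11.52, 11.72 and 11.75 in old kidneys, against 11.74, 11.56, 11.74 and 11.70 in young kidneys. The ranges overlapped almost fully, and the log2 fold change was -0.06 (standard error 0.068, adjusted p = 0.55 from limma).

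Complex IV is cytochrome c oxidase, whose catalytic core is encoded by mitochondrial DNA. Genes of mitochondrial DNA were not analysed here, so that the 10 measured genes are all subunits around that core. Cox4i1 and Cox5b rose, with a median log2 fold change of 0.18 over the 10 genes. Cox4i1 is the largest nuclear subunit and takes part in the control of the enzyme by ATP. It read 11.92, 11.998, 11.84, 11.92 and 11.91 at 96 weeks, against 11.59, 11.56, 11.43 and 11.19 at 14 weeks. The old kidneys lay close together and above all young kidneys, of which replicate 4 was the lowest. Cox4i1 rose by 0.48 (log2, standard error 0.079, adjusted p = 0.010 from limma). Cox5b, the zinc-binding subunit on the matrix side, read 11.63, 11.68, 11.50, 11.61 and 11.69 in old kidneys, against 11.43, 11.47, 11.40 and 11.26 in young kidneys. The lowest old kidney, replicate 3, was just above the highest young one. Cox5b rose by 0.23 (log2, standard error 0.060, adjusted p = 0.048 from limma).

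Cox6c, a subunit that spans the membrane, read 12.16, 11.93, 11.89, 12.02 and 12.04 at 96 weeks, against 11.88, 11.74, 11.73 and 11.49 at 14 weeks. Its groups did not overlap, but it did not pass (log2 fold change 0.30, standard error 0.083, adjusted p = 0.059 from limma). Cox5a, which binds thyroid hormone metabolites and pairs with Cox5b on the matrix side, likewise had groups apart and did not pass (log2 fold change 0.22, adjusted p = 0.064 from limma). Cox7a2l, which joins complexes III and IV into supercomplexes, had a log2 fold change of 0.22 (limma, adjusted p = 0.095). Its other, dimmer probe set had 0.24 (limma, adjusted p = 0.034 over probe sets), so that its call depends on the probe set. The other small subunits, Cox6a1, Cox6b1, Cox7a2, Cox7b and Cox8a, had log2 fold changes between -0.06 and 0.15, and the groups of each overlapped.

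Complex V had 15 measured genes, of which 6 rose. All 15 log2 fold changes were above 0, against 8645 of all 19938 genes. Those of Atp5b and Atp5pb turned below 0 after repeated quantile normalization and cyclic loess, and that of Atp5b also without young replicate 4. Its catalytic head is built from alpha (Atp5a1) and beta (Atp5b) subunits, with a central stalk of gamma (Atp5c1), delta (Atp5d) and epsilon (Atp5e). Delta and epsilon rose, whereas alpha, beta and gamma did not pass, with log2 fold changes of 0.12, 0.02 and 0.07. Atp5d read 11.21, 11.03, 10.81, 10.86 and 11.06 in old kidneys, against 10.50, 10.39, 10.44 and 10.31 in young kidneys. All old kidneys lay above all young kidneys, and Atp5d rose by 0.59 (log2, standard error 0.082, adjusted p = 0.0057 from limma). Atp5e read 11.04, 11.10, 10.85, 11.22 and 11.12 at 96 weeks, against 10.51, 10.57, 10.56 and 10.15 at 14 weeks. The groups were apart, and young replicate 4 lay well under the other young kidneys. Atp5e rose by 0.62 (log2, standard error 0.099, adjusted p = 0.0095 from limma).

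**Figure D2:**
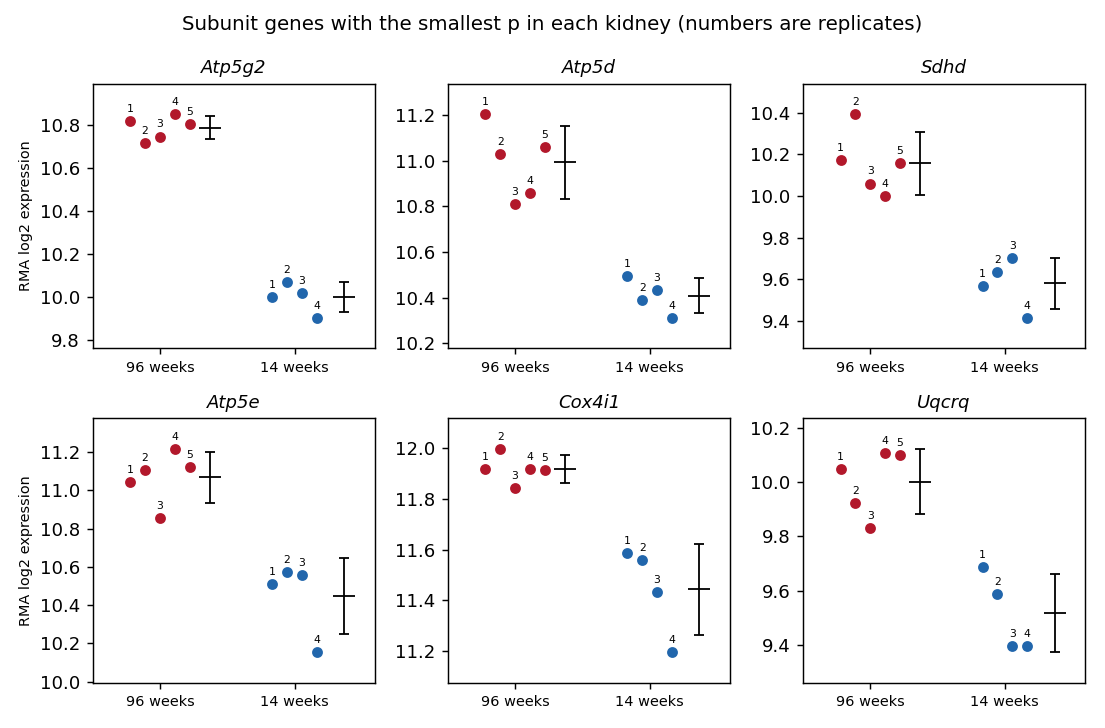
RMA log2 expression (vertical axis, a scale of its own in each panel) of Atp5g2, Atp5d, Sdhd, Atp5e, Cox4i1 and Uqcrq, the subunit genes with the smallest p, in 5 kidneys at 96 weeks and 4 kidneys at 14 weeks. Points are kidneys numbered by replicate, and bars give the mean and 1 SD. The old kidneys are above the young kidneys for all 6 genes.

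The ring that turns as protons pass is made of c subunits, and Atp5g1, Atp5g2 and Atp5g3 all encode the same mature c protein behind different import sequences. Atp5g2 had the largest log2 fold change of the 39 genes. It read 10.82, 10.72, 10.75, 10.85 and 10.81 in old kidneys, against 10.0025, 10.07, 10.02 and 9.91 in young kidneys. The gap between the ages was many times the spread within either age (SD 0.055 at 96 weeks, n = 5, and 0.069 at 14 weeks, n = 4). Atp5g2 rose by 0.79 (log2, standard error 0.052, adjusted p = 2.0e-04 from limma), and its 3 probe sets had log2 fold changes of 0.79, 0.85 and 0.70. Atp5g1 read 10.33, 10.24, 10.11, 10.36 and 10.40 at 96 weeks, against 9.99, 10.12, 9.91 and 10.03 at 14 weeks. Old replicate 3 lay just under young replicate 2, so that the groups overlapped. Atp5g1 rose by 0.27 (log2, standard error 0.069, adjusted p = 0.043 from limma). The other probe set of Atp5g1 had 0.21 and did not pass (limma, adjusted p = 0.075 over probe sets), so that its call depends on the probe set. Atp5g3 read 12.80, 12.75, 12.73, 12.73 and 12.80 in old kidneys, against 12.74, 12.73, 12.67 and 12.62 in young kidneys. Its groups overlapped, and its log2 fold change was 0.07 (standard error 0.046, adjusted p = 0.31 from limma).

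The log2 fold changes of the c subunit genes were compared with each other within arrays, as part of 8 pairs of related genes. The log2 fold change of Atp5g2 exceeded that of Atp5g3 by 0.72 (standard error 0.032) and that of Atp5g1 by 0.51 (standard error 0.061). For both of these pairs p was 0.0079 in an exact two-sided permutation test, the smallest the design allows, and 0.021 after adjustment over the 8 pairs. Between Atp5g1 and Atp5g3 the difference was 0.20 (exact permutation p = 0.032, adjusted p = 0.063). Atp5g3 had a mean log2 level of 12.73, in the range above 12 where none of the subunit genes passed, and a compressed response of its probe set at that level was not tested. Atp5g2 and Atp5g1 had mean log2 levels of 10.44 and 10.16.

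**Figure D3:**
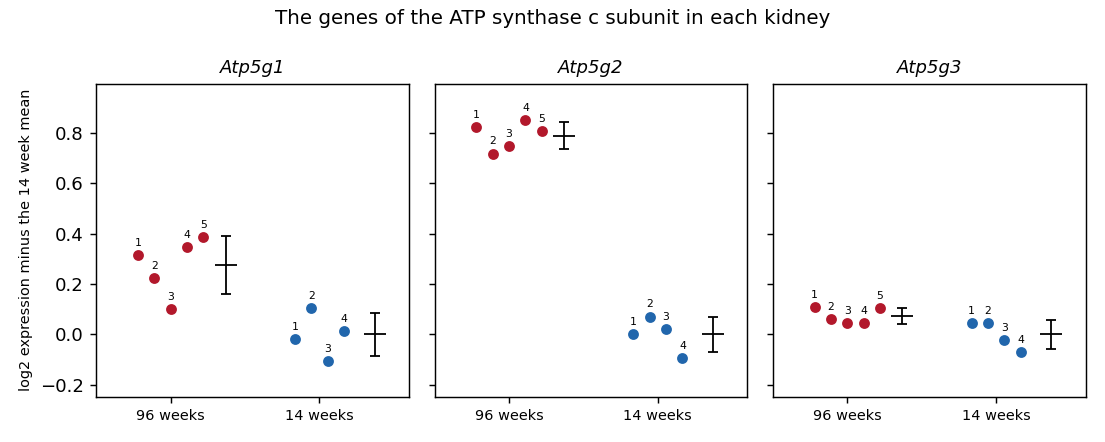
Log2 expression of Atp5g1, Atp5g2 and Atp5g3 in each kidney, as the difference from the 14 week mean of the gene (vertical axis), at 96 weeks and 14 weeks. Points are kidneys numbered by replicate and bars give the mean and 1 SD. The old kidneys of Atp5g2 lie far above the young ones, those of Atp5g1 partly and those of Atp5g3 hardly.

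The peripheral stalk holds the head still while the ring turns. It is made of Atp5o (OSCP), Atp5h (subunit d), Atp5j (coupling factor 6) and Atp5pb (subunit b). Atp5o read 10.88, 10.85, 10.73, 10.86 and 10.94 at 96 weeks, against 10.63, 10.67, 10.62 and 10.54 at 14 weeks. The old kidneys all lay above the young ones, and Atp5o rose by 0.24 (log2, standard error 0.055, adjusted p = 0.032 from limma). Atp5h and Atp5j had groups that did not overlap but did not pass (log2 fold changes 0.28 and 0.13, adjusted p = 0.052 and 0.10 from limma). Atp5pb had a log2 fold change of 0.03. Among the small membrane subunits that help the enzyme form dimers, Atp5k (subunit e) read 10.99, 11.02, 10.90, 11.09 and 11.03 in old kidneys, against 10.67, 10.84, 10.73 and 10.42 in young kidneys. Its groups were apart, and Atp5k rose by 0.34 (log2, standard error 0.080, adjusted p = 0.036 from limma). Atp5l (subunit g) and Atp5j2 (subunit f) did not pass, with log2 fold changes of 0.15 and 0.21.

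In the exact two-sided permutation test over the 126 splits of the arrays, p was 0.0079 for Atp5g2, Atp5d, Sdhd, Atp5e, Cox4i1, Uqcrq, Uqcr11, Uqcr10 and Atp5k. It was 0.016 for Atp5o, Cox5b and Uqcrc1 and 0.024 for Atp5g1. These p-values are not adjusted, and 0.0079 is the smallest the design allows. Of the genes that did not pass in limma, Cox6c also had 0.0079 in this permutation test. Cox5a, Cox6b1, Cox7a2l, Atp5h and Atp5j had 0.016, and Uqcrh and Cox6a1 had 0.024. The permutation test was not run over all genes. The calls of Uqcrc1, Cox5b and Atp5g1 held under 7 of 20 alternative settings, those of Atp5k and Atp5o under 8 and that of Uqcr10 under 11.

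Promoter sequences are shown for the c subunit genes with the highest and the lowest log2 fold change (Atp5g2 and Atp5g3), for Sdhd and Atp5e, which rose in complexes II and V, and for Atp5b, the catalytic subunit with a log2 fold change of 0.02. They are taken from RefSeq on GRCm38.p6, run 5′ to 3′ on the strand of the gene and cover 250 bases before and 50 after its start. Atp5g2 lies at chr15:102670998-102671297 (minus strand), Atp5g3 at chr2:73911277-73911576 (minus strand), Sdhd at chr9:50603800-50604099 (minus strand), Atp5e at chr2:174464052-174464351 (minus strand) and Atp5b at chr10:128083057-128083356 (plus strand). Capitals mark matches, on either strand, to the motifs searched.
Atp5g2: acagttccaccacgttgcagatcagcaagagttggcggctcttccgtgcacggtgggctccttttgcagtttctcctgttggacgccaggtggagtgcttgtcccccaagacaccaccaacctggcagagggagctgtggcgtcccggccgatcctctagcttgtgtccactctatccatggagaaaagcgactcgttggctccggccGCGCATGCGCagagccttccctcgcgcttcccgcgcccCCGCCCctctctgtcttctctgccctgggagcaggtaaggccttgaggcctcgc
Atp5g3: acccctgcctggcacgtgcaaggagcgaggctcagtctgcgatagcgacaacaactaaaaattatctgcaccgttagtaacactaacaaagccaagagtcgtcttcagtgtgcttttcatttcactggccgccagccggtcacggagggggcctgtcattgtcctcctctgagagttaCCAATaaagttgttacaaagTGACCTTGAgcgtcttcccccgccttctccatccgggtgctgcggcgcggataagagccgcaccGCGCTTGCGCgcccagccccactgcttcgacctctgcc
Sdhd: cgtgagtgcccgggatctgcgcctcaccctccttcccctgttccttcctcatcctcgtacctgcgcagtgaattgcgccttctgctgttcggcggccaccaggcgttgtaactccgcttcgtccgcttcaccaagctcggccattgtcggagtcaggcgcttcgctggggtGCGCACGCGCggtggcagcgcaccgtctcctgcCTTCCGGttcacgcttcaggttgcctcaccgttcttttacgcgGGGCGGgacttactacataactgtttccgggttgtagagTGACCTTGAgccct
Atp5e: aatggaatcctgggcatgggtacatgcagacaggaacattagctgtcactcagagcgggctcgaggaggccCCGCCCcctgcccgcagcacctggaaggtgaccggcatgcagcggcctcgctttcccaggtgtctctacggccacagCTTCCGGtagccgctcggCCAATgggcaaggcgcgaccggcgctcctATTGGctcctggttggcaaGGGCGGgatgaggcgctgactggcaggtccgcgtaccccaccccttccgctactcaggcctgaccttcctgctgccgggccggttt
Atp5b: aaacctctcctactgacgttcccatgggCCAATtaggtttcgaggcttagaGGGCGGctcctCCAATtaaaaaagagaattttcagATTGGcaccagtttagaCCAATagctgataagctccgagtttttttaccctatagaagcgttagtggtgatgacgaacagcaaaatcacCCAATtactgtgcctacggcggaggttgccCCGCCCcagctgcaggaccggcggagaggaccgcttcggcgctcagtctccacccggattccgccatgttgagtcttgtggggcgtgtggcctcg

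The motifs searched on both strands were GCGCA, any base and GCGC in a row for NRF1, CCGGAAG for GABPA, AAGATGGCG for YY1, TCAAGGTCA for the estrogen-related receptors (ERR), CCAAT, and GGGCGG for SP1. No motif contains another, although their matches may overlap at the ends. The promoter table held 31 of the 39 measured genes and 27025 genes in all. The NRF1 motif stood in 10 of the 31 promoters (32.3%, against 5.19% of all genes), as in Atp5g2, Atp5g3 and Sdhd above. The GABPA motif stood in 12 (38.7%, against 9.93%), among them Sdhd and Atp5e. CCAAT stood in 17 (54.8%, against 41.1%), with 5 matches in Atp5b alone, and the SP1 motif in 12 (38.7%, against 38.2%). The ERR motif stood in Sdhd and Atp5g3 (6.45%, against 0.466%), and the YY1 motif in Atp5j and Atp5j2 (6.45%, against 1.64%). Of the 11 genes that rose and had a promoter in the table, 5 held the NRF1 motif, 4 the GABPA motif, 3 CCAAT, 3 the SP1 motif, 1 the ERR motif and 0 the YY1 motif. Of the 20 other genes, 5 held the NRF1 motif, 8 the GABPA motif, 14 CCAAT, 9 the SP1 motif, 1 the ERR motif and 2 the YY1 motif. The median GC content was 57.0% in the members' promoters and 52.8% over all genes. A match describes letters in this window and is not a measured binding site.

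The size of the change went with the signal level of the gene. The 9 genes with a mean log2 level of at least 12, among them Atp5b, Atp5g3, Cox6b1 and Uqcrh, had a median log2 fold change of 0.09, and none passed (limma, adjusted p under 0.05, with 2 at an unadjusted p under 0.05). The 30 genes below that level had a median of 0.23, and 13 rose. Across the 39 genes Pearson's r between mean level and log2 fold change was -0.56 and Spearman's rho was -0.58, as a description over genes that share the same arrays and are not independent. Over all 19938 genes r was 0.26. The members are among the brightest genes of the kidney, and 37 of them lay in the top bin when all genes were cut into 10 bins of signal. Of these 37 genes 29.7% rose and none fell, against 11.8% and 3.06% of all genes of the bin. The old kidneys lay wholly above the young ones for 14 of the 37, against 19.0% of all genes of the bin. The median log2 fold change was 0.17 for the 37 and 0.03 over all genes of the bin. Of all genes of the bin 58% had a log2 fold change above 0. The upper quartile of the deposited values was 8.01 to 8.08 in old arrays and 7.92 to 7.98 in young arrays, and the part of this shift in the fold changes was not tested beyond other scalings of the arrays. After repeated quantile normalization 8 subunit genes rose, and 8 rose after cyclic loess. Beside them 2.44% and 2.71% of all genes rose.

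**Figure D4:**
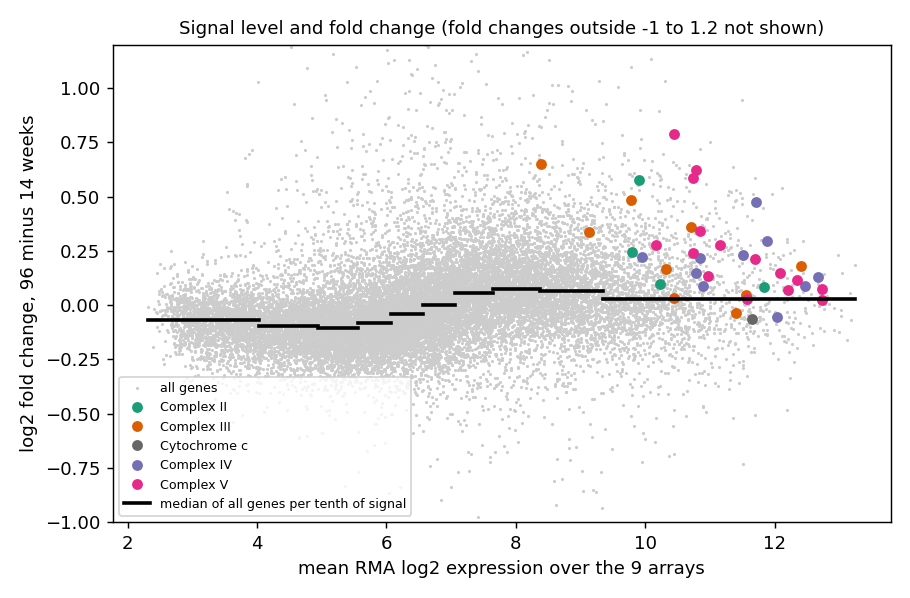
Log2 fold change (96 minus 14 weeks, vertical axis) against mean log2 expression over the 9 arrays (horizontal axis) for all genes (grey) and the subunit genes (coloured by complex). Black bars are the median of all genes in each of 10 bins of signal. The subunit genes lie to the right, and above a level of 12 their changes stay between -0.06 and 0.18.

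The kidneys of each age differed among themselves in the same way for most subunit genes. Mean centred log2 values over the 39 genes were 0.12, 0.13, -0.0085, 0.097 and 0.17 in old kidneys, against -0.070, -0.077, -0.12 and -0.24 in young kidneys. Every old kidney lay above every young kidney, and this also held within complexes II, III, IV and V taken alone. Replicate 3 was the lowest old kidney for 28 of the 39 genes, and replicate 4 was the lowest young kidney for 33. Leaving out any 1 array but old replicate 3 reduced the genes that rose to 7 or 8, while 1.88% to 3.56% of all genes rose. The count was 15 without old replicate 3, the kidney with the lowest tubule markers (mean centred log2 level -0.27, against -0.13 to 0.18 in the other old kidneys). Without that kidney 3.77% of all genes rose, against 4.31% with all arrays.

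**Figure D5:**
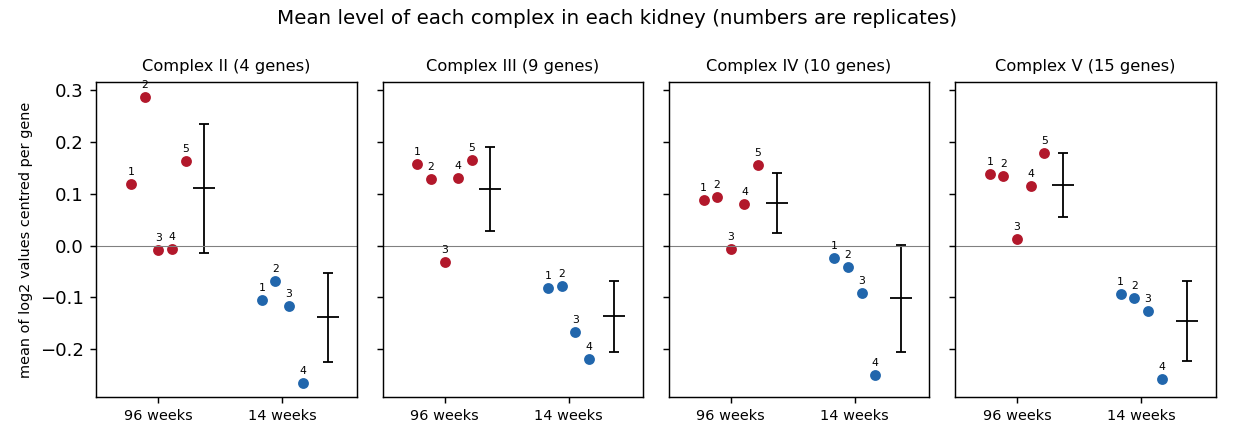
Mean of the log2 values of the genes of complexes II, III, IV and V in each kidney, after each gene was centred on its mean over the 9 arrays (vertical axis). Points are kidneys numbered by replicate and bars give the mean and 1 SD. In each panel the 5 old kidneys lie above the 4 young kidneys, of which replicate 4 is the lowest.

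Markers of other cells moved with age in these kidneys, and their part in the changes of the subunit genes was not tested. Of 9 macrophage markers Csf1r, Lyz2 and Tyrobp rose and none fell, and their summed linear level was 1940 to 4540 in old kidneys, against 1180 to 1330 in young kidneys. Of 7 B cell and plasma cell markers Jchain and Igha rose, with sums of 1550 to 3590 in old kidneys, against 484 to 515 in young kidneys. No T cell marker of 6 passed, and their sums were 325 to 1940 in old kidneys and 344 to 374 in young kidneys. The 15 tubule markers held no gene that passed (limma, adjusted p under 0.05, with 2 at an unadjusted p under 0.05), with sums of 31200 to 38200 in old kidneys and 34400 to 34900 in young kidneys. Of 7 podocyte and endothelial markers Wt1 fell, and no adipocyte or muscle marker passed. Without old replicates 3 and 4, which held the most macrophage marker RNA, 14 subunit genes rose, against 3.71% of all genes, and 11 of the 14 were among the 13. Left out alone, the 2 kidneys differed. Without old replicate 3 15 subunit genes rose, against 3.77% of all genes. Without old replicate 4 7 rose, against 3.56%.

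A further list of 15 genes held isoforms restricted to some tissues, subunits named later, and the related genes Atpif1, Dmac2 and Dmac2l. None of the 15 passed as a single gene (limma, adjusted p under 0.05, with 6 at an unadjusted p under 0.05). Their mean log2 levels ran from 3.21 to 12.44, and the median log2 fold change over this mixed list was 0.06. Cox4i2, the isoform of Cox4i1 that prevails in lung, had a log2 fold change of -0.06, and Cox6a2, the muscle isoform of Cox6a1, had -0.05. Their mean log2 levels were low, 5.98 and 6.85, and neither was shown to be above background, so that their differences from Cox4i1 and Cox6a1 are not given. The muscle isoform Cox7a1 had a log2 fold change of 0.39 against 0.15 for Cox7a2, a difference of 0.24 with a standard error of 0.12 (exact permutation p = 0.079, adjusted p = 0.13). Cox7a2l and Cox7a2 differed by 0.07, with a standard error of 0.10 (exact permutation p = 0.58). Cox8b, a muscle and brown fat isoform, read 7.20, 7.53, 8.80, 6.41 and 9.07 in old kidneys, against 6.49, 7.36, 6.56 and 6.30 in young kidneys. Old replicates 3 and 5 were high, and the others overlapped with the young kidneys. The log2 fold change of Cox8b was 1.124 (limma, adjusted p = 0.17), and the log2 fold change of Cox8a minus that of Cox8b was -1.04 (exact permutation p = 0.16, adjusted p = 0.18).

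Assembly factors build the complexes but are not part of them. Of 35 measured, 5 rose and 1 fell, with a median log2 fold change of 0.09. Cox19, needed to assemble complex IV, rose by 0.65 (log2, adjusted p = 0.0034 from limma), and Coa3, which stabilises the first core subunit of complex IV, rose by 0.47 (adjusted p = 0.017). Uqcc2, needed for cytochrome b of complex III, rose by 0.53 (adjusted p = 0.0082 from limma). Cmc2, of complex IV, rose by 0.32 (adjusted p = 0.036 from limma), and Atpaf2, which assembles the alpha subunit into the head of complex V, rose by 0.35 (adjusted p = 0.045). Coa6, which helps to bring copper to complex IV, read 7.93, 7.58, 7.44, 7.64 and 7.86 in old kidneys, against 8.23, 8.17, 8.28 and 7.99 in young kidneys. All old kidneys lay below all young kidneys, and Coa6 fell by 0.48 (log2, adjusted p = 0.028 from limma). The calls of Cox19 and Uqcc2 held under all 20 alternative settings and that of Coa3 under 19, but those of Coa6, Atpaf2 and Cmc2 held under 12, 11 and 8.

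The other complex of the chain, complex I, takes electrons from NADH. Of its 34 measured subunit genes 10 rose and none fell, with a median log2 fold change of 0.24, and those with the smallest p were Ndufa11 (0.73), Ndufb7 (0.58), Ndufa2 (0.59), Ndufv1 (0.55) and Ndufa3 (0.37). None of 17 measured genes of mitochondrial mass, such as the outer membrane channel Vdac1 (0.21) and citrate synthase (Cs, 0.15), passed (limma, adjusted p under 0.05, with 7 at an unadjusted p under 0.05). Their median log2 fold change was 0.08.

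Regulators of these genes were measured on the same arrays. None of 15 rose and 2 fell. Ppargc1a, the coactivator that drives mitochondrial biogenesis, read 10.92, 10.75, 10.44, 10.71 and 10.80 in old kidneys, against 11.21, 11.22, 11.08 and 11.36 in young kidneys. All old kidneys lay below all young kidneys, so that its direction was opposite to that of the 13 subunit genes. Ppargc1a fell by 0.49 (log2, standard error 0.094, adjusted p = 0.017 from limma). Esrrg, a nuclear receptor that works with Ppargc1a, read 9.77, 9.86, 9.52, 9.42 and 9.47 at 96 weeks, against 9.89, 10.05, 9.93 and 10.03 at 14 weeks. The groups did not overlap, and Esrrg fell by 0.37 (log2, standard error 0.094, adjusted p = 0.046 from limma). Of the other factors whose motifs are given above, Nrf1, Gabpa, Esrra and Yy1 did not pass: the log2 fold change was -0.04 for Nrf1, -0.08 for Gabpa, -0.03 for Esrra and 0.06 for Yy1. Tfam, which packs and transcribes mitochondrial DNA, did not pass, at a log2 fold change of 0.12.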

How the data were processed

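Kidney RNA was measured on 9 arrays. RMA, the robust multi-array average, with quantile normalization was run by the authors, who deposited log2 expression levels per probe set. The submitters' processing notes name Affymetrix Power Tools 1.12.0. The sources used here give no genome build for the array annotation, no signal over background and no scan dates.

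Of 35557 probe sets, 21789 carried 1 gene symbol, 1621 several and 12147 none. Probe sets with 1 symbol were used, and the brightest over all arrays stood for a gene. Members had 59 probe sets in all, 12 members had more than 1, and the signs agreed in 11 of these, the exception being Cycs. Which probe sets lie on similar sequences elsewhere in the genome was not given.

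The 2 ages were compared in R 4.3.3 by lmFit and eBayes of limma 3.58.1, without covariates or a filter on dim genes, in place of the methods' t-test, which was an alternative. The 20 alternatives changed the test, its variance model and weights, the scaling of arrays, the filter on dim genes and the choice of probe sets, used the replicate number as a block, or left out arrays. The test was checked on simulated data in which 200 genes changed. It recovered 16.4% of changes of 0.25 log2, 74.6% of changes of 0.5 and 97% of changes of 1. A gene that did not pass may thus still differ by a small amount. Single values were tested by exact two-sided permutation. The number of arrays limits the precision, and no 2 arrays held identical values (correlations 0.982 to 0.997). Python 3.11.15 was used for promoters and figures.

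The members, gene lists and tests were chosen with earlier results of these data known. Array values are given for members that passed and for the 2 with the largest change in each complex. Of other lists up to 5 genes that passed, fixed regulators and isoform pairs are named. Atpaf2, Yy1, Vdac1 and Cs, and the array values of Atp5g3, Cox8b and Coa6, were chosen after values were seen.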

Additional observations from a re-analysis of the deposited data

Results flagged for a closer look

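Uqcrc1, Uqcr10, Atp5e and Atp5j2 each had 1 young kidney set apart from the others, relative to the range of its age. In all 4 genes it was replicate 4 at 14 weeks, as the lowest value. Uqcr10 read 10.24 there, while the next young kidney read 10.57. Atp5e read 10.15, against 10.51 in the next. Atp5j2 read 11.34, against 11.64 in the next. Uqcrc1 read 8.893, against 8.948 in the next, a small gap within a narrow spread (SD 0.029 at 14 weeks). At a rate of 1 in 20, 3.9 of the 78 groups tested would be flagged if they were independent, and 4 were found. The groups come from the same arrays and are not independent, so these counts are a description only. Replicate 4 was the lowest young kidney for 33 of the 39 genes, and an effect of this 1 array was not tested. With replicate 4 left out, the log2 fold change was 0.27 for Uqcr10 (adjusted p = 0.048 from limma), 0.52 for Atp5e (adjusted p = 0.019), 0.13 for Atp5j2 (adjusted p = 0.27) and 0.32 for Uqcrc1 (adjusted p = 0.12).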

How the results depend on the processing

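Sdhd, Cox4i1, Atp5d and Atp5g2 passed under all 20 alternatives, Uqcrq and Atp5e under 19, Uqcr11 under 17, Uqcr10 under 11, Atp5k and Atp5o under 8, and Uqcrc1, Cox5b and Atp5g1 under 7. No subunit gene fell under any of them. The count of subunit genes that rose, 13, was 6 by the methods' t-test, 8 after repeated quantile normalization, 8 after cyclic loess and 7 to 15 when 1 array was left out. Of all genes 860 rose and 479 fell, against 273 and 94 by the t-test, 486 and 566 after repeated quantile normalization, 541 rises after cyclic loess, 374 to 751 rises and 154 to 384 falls when 1 array was left out, and 286 falls without old replicates 3 and 4. The median of the subunit genes moved between 0.12 and 0.24. The labels do not say whether the replicate numbers pair the samples. Deviations of same-numbered arrays correlated at 0.076, 0.021, -0.038 and 0.012. Old replicate 1 correlated best with young replicate 1, and the others correlated best with a young array of another number. With the replicate number as a block 4 subunit genes rose, and of all genes 279 rose and 89 fell. Old replicate 5 had no young partner and was a block of its own, so that it added nothing to the fold changes there. Leaving out that kidney without a block gave 7 subunit genes. The direction turned for genes near 0: after repeated quantile normalization to -0.031 for Uqcrc2, -0.036 for Uqcrfs1, -0.0072 for Cox8a, -0.0056 for Atp5b and -0.050 for Atp5pb, after cyclic loess to -0.0012 for Uqcrc2, -0.023 for Uqcrfs1, -0.014 for Atp5b and -0.021 for Atp5pb, and without young replicate 4 to -0.0017 for Atp5b (-0.0017 to 0.045 when any 1 array was left out). The cause of these shifts was not tested. Ppargc1a passed under 18 of the 20 (highest adjusted p = 0.066; it missed by the t-test and without young replicate 4) and Esrrg under 9.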
